A study of Mus with 2 samples.

Results

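Immunoglobulin genes and genes of the B lineage were examined in single-nucleus RNA-seq (snRNA-seq) data of interscapular brown adipose tissue (iBAT). The 10 genes were *Igha*, *Ighm*, *Igkc*, *Jchain*, *Cd79a*, *Cd79b*, *Ms4a1*, *Pax5*, *Bank1* and *Fcrl1*, and all 10 were listed among the 32285 genes of the files. They were chosen by their UMI counts in these same libraries, with earlier results known. A nucleus was counted as a candidate B-lineage nucleus where 3 or more of the 10 genes had at least 1 unique molecular identifier (UMI). That rule held for 76 of 18266 nuclei, 6 of them in the control library and 70 in the other.

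The control library came from Wtapflox/flox mice, in which *Wtap* carries a floxed exon. The second library was labelled *Wtap*-BKO, from Wtap flox/flox mice that also carried UCP1-iCre, a Cre expressed from the *Ucp1* locus of brown adipocytes. All mice were C57BL/6 on normal chow at 8 weeks of age, and frozen iBAT of 4 mice was pooled per library. Each genotype therefore had 1 library, the mice of a pool could not be separated, and no test between genotypes was possible. The Wtapflox/flox library held 9494 nuclei and 10770604 UMIs (median 954 per nucleus), while 8772 nuclei and 13945673 UMIs (median 1306) were counted in the library labelled *Wtap*-BKO. Median mitochondrial shares were 3.47% and 8.44% of UMIs. The targeted gene did not separate them: *Wtap* had 554 UMIs (51.4 counts per 1000000 UMIs, CPM) in the control and 734 UMIs (52.6 CPM) in the other, so that library is named by its label throughout. These counts are per gene and over all nuclei, so they cannot show whether the floxed exon was lost in brown adipocytes. The libraries shared 20 cell barcodes, and none of the nuclei with these barcodes met the rule.

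B cells carry membrane immunoglobulin together with the signalling chains CD79A and CD79B, and their identity is held by the transcription factor PAX5. On differentiation to plasma cells, PAX5 and its targets are switched off, and immunoglobulin mRNA comes to make up a large part of the transcripts. The heavy chain constant regions *Ighm* and *Igha* encode the IgM and IgA classes, *Igkc* encodes the constant region of the kappa light chain, and *Jchain* encodes the chain that joins IgA or IgM units into polymers. *Ms4a1* encodes CD20, *Bank1* an adaptor of B cell receptor signalling, and *Fcrl1* an Fc receptor-like protein of the B cell surface. Free RNA in a droplet suspension can also place abundant transcripts in nuclei that do not make them, so the nuclei that hold a gene matter as much as its total.

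In the mouse genome (GRCm38.p6, the build also called mm10), RefSeq places *Igha* at 113256204 to 113260236 and *Ighm* at 113418826 to 113422730 of chromosome 12, both annotated as constant-region segments of the heavy chain locus. *Igkc* is a constant-region segment at 70726435 to 70726754 of chromosome 6. The other 7 genes are protein-coding and lie on chromosomes 3 (*Bank1* and *Fcrl1*), 4 (*Pax5*), 5 (*Jchain*), 7 (*Cd79a*), 11 (*Cd79b*) and 19 (*Ms4a1*).

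Over all nuclei, every one of the 10 genes had a higher CPM in the library labelled *Wtap*-BKO than in the Wtapflox/flox library, by 2-fold or more. Of all 16290 genes with at least 20 UMIs, 19.8% were 2-fold or more higher there and 2.81% were 2-fold or more lower, and the median log2 ratio of all these genes was 0.22. The members were chosen with such differences known, so their counts are a description. *Igha* had 67 UMIs (6.22 CPM, 95% Poisson interval 4.82 to 7.90) in the Wtapflox/flox library and 2484 UMIs (178.1 CPM, 171.2 to 185.3) in that labelled *Wtap*-BKO, which gave a log2 ratio of 4.84 (95% interval 4.49 to 5.21). It ranked 19th from the top among the 16290 genes. *Igkc* had 97 and 1882 UMIs (log2 ratio 3.90, 3.61 to 4.21) and *Jchain* 53 and 269 UMIs (1.97, 1.54 to 2.42). *Ighm*, with 79 and 275 UMIs, had a smaller log2 ratio of 1.43 (1.06 to 1.81). All intervals given here cover counting error only, and neither the spread between mice nor between library preparations.

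The genes of B cell identity were much sparser. *Pax5* had 20 and 64 UMIs (log2 ratio 1.30, 0.56 to 2.11), *Cd79a* 12 and 34 UMIs (1.13, 0.14 to 2.21), and *Cd79b* 6 and 38 UMIs (2.29, 1.04 to 3.82). *Fcrl1* had 5 and 27 UMIs (2.06, 0.66 to 3.79). For *Ms4a1*, with 9 and 24 UMIs, the interval of the log2 ratio (1.04, -0.11 to 2.33) included 0. *Bank1* was the exception in number, with 119 and 437 UMIs (1.5, 1.21 to 1.81), and most of its UMIs in the Wtapflox/flox library lay outside the B lineage, as described further on. In bulk sums of this kind, more nuclei of a type and more RNA per nucleus cannot be told apart.

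**Figure D1:**
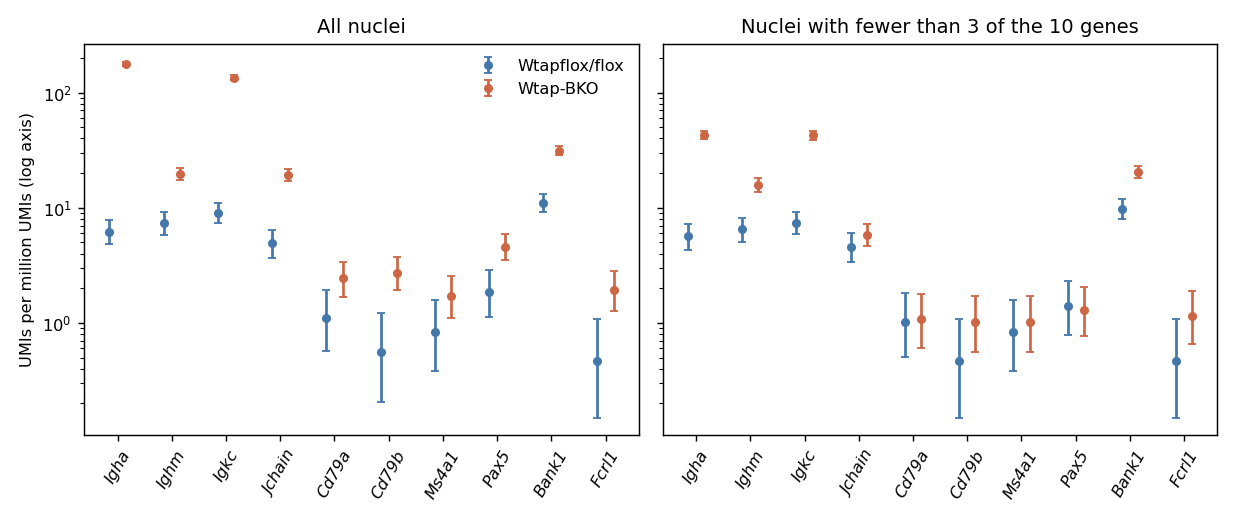
UMIs per 1000000 UMIs (log axis) of each of the 10 genes in the Wtapflox/flox library (blue) and the library labelled Wtap-BKO (orange), with 95% Poisson intervals, for all nuclei (left) and for nuclei with fewer than 3 of the genes (right). Over all nuclei *Igha* stands at 6.22 and 178.1, whereas without the candidate nuclei, which these genes chose, it stands at 5.67 and 42.7.

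Nuclei with 3 or more of the genes made up 0.0632% of the Wtapflox/flox library (6 of 9494, Clopper-Pearson 95% interval 0.0232% to 0.138%) and 0.798% of the library labelled *Wtap*-BKO (70 of 8772, 0.623% to 1.01%), a ratio of 12.6. Adipocyte-like clusters, described further on, held 70.95% and 55.91% of the nuclei. Outside them the shares were 0.2175% (6 of 2758) and 1.629% (63 of 3868), a ratio of 7.49. Over all nuclei the ratio was 7.58 for 2 or more of the 10 genes (0.305% and 2.31%) and 18.4 for 4 or more (0.0211% and 0.388%), and it was 5.41 for 2 or more of the 6 B-cell genes alone (0.0948% and 0.513%). The second library was the deeper one, and the order was kept after every nucleus was thinned to 1000 UMIs, at 0.0229% (1 of 4371) and 0.473% (28 of 5920), a ratio of 20.7 that rests on 1 nucleus of the control. Thinning left out 5123 and 2852 shallower nuclei, and the same nuclei unthinned gave 0.0229% and 0.642%. Just inside the threshold, 4 and 36 nuclei held exactly 3 of the genes. Just outside it, 23 and 133 nuclei held 2, most often *Ighm* with *Bank1* in the Wtapflox/flox library (7 nuclei) and *Igha* with *Igkc* in the other (48 nuclei).

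The candidate nuclei were divided by a rule into a B-cell type and an immunoglobulin type. Nuclei with 2 or more of the 6 B-cell genes (*Cd79a*, *Cd79b*, *Ms4a1*, *Pax5*, *Bank1* and *Fcrl1*) numbered 4 in the Wtapflox/flox library and 39 in the library labelled *Wtap*-BKO. The remaining candidates, 2 and 31 nuclei, owed their count mainly to the immunoglobulin genes. A gap in the counts then set apart a smaller set. In the library labelled *Wtap*-BKO, 18 nuclei (0.205%, 0.122% to 0.324%) held between 14 and 923 immunoglobulin UMIs, counted over *Igha*, *Ighm*, *Igkc* and *Jchain*, and the next nucleus below held 7. The Wtapflox/flox library had 1 such nucleus (0.0105%, 0.000267% to 0.0587%), with 23 UMIs, and the next below held 5. Of the 18, 1 nucleus with 315 immunoglobulin UMIs, 2 *Cd79b* UMIs and 1 *Cd79a* UMI also counts among the 39 of B-cell type, so the 2 sets overlap in it. The limit of 10 immunoglobulin UMIs that separates these nuclei was chosen after their values were seen.

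These 18 nuclei carried most of the immunoglobulin transcripts of their library, 3317 of 4910 UMIs (67.6%). The single richest nucleus held 923 UMIs, or 18.8% of the library's total, made up of 618 *Igha*, 253 *Igkc* and 52 *Jchain* UMIs. It had 3034 UMIs in all, so that immunoglobulin transcripts were 30.4% of its RNA counts. Across the 18 nuclei the immunoglobulin count ranged from 14 to 923 with a median of 86.5, and the share of all UMIs ranged from 0.962% to 30.4% with a median of 6.48%. *Igha*, *Igkc* and *Jchain* were detected together in 15 of the 18. *Igkc* was above the summed lambda constant genes in all 18. *Igha*, *Igkc* and *Jchain* UMIs had set these nuclei apart and lambda UMIs had not, so both counts are a description.

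By heavy chain, 16 of the 18 nuclei were led by *Igha*. The other 2 had no *Igha* UMI and were led by *Ighg2b*, the constant region of the IgG2b class, with 39 and 32 UMIs. *Igha* UMIs counted toward the limit that set these nuclei apart and *Ighg2b* UMIs did not, so this order is a description too. *Ighm* gave 1 UMI over all 18. Among the B-cell genes, *Pax5*, *Ms4a1* and *Fcrl1* had 0 UMIs in these nuclei and *Bank1* had 1, whereas *Cd79b* had 7 UMIs in 5 nuclei and *Cd79a* had 3 UMIs in 3 nuclei. Genes of the secretory plasma cell program that the rule had not used were found in the same nuclei. Of 14 such genes, a median of 5 was detected per nucleus, and 14 of the 18 nuclei had 3 or more. *Txndc5*, an oxidoreductase of the endoplasmic reticulum, was present in 14 nuclei at 1244 CPM (920.1 to 1644), against 33.2 CPM (30.3 to 36.4) in the 8680 nuclei of that library outside the candidate and B cell-like sets. A single nucleus held 20 of the 52 *Txndc5* UMIs of all 70 candidates. *Xbp1*, the transcription factor of the unfolded protein response, stood at 533.0 CPM in 8 nuclei against 55.1, *Irf4*, a regulator of plasma cell differentiation that brown adipocytes also express, at 304.6 against 64.1, and *Ell2*, an elongation factor for secretory immunoglobulin mRNA, at 380.7 against 120.9. *Sdc1*, which encodes the plasma cell surface marker CD138, gave only 2 UMIs.

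The 1 nucleus of this kind in the Wtapflox/flox library held 6 *Igha*, 13 *Igkc* and 4 *Jchain* UMIs among 702 UMIs (3.28%) and had 3 of the 14 plasma cell genes. Its count lay below the median of the 18 nuclei of the other library and above the lowest of them.

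**Figure D2:**
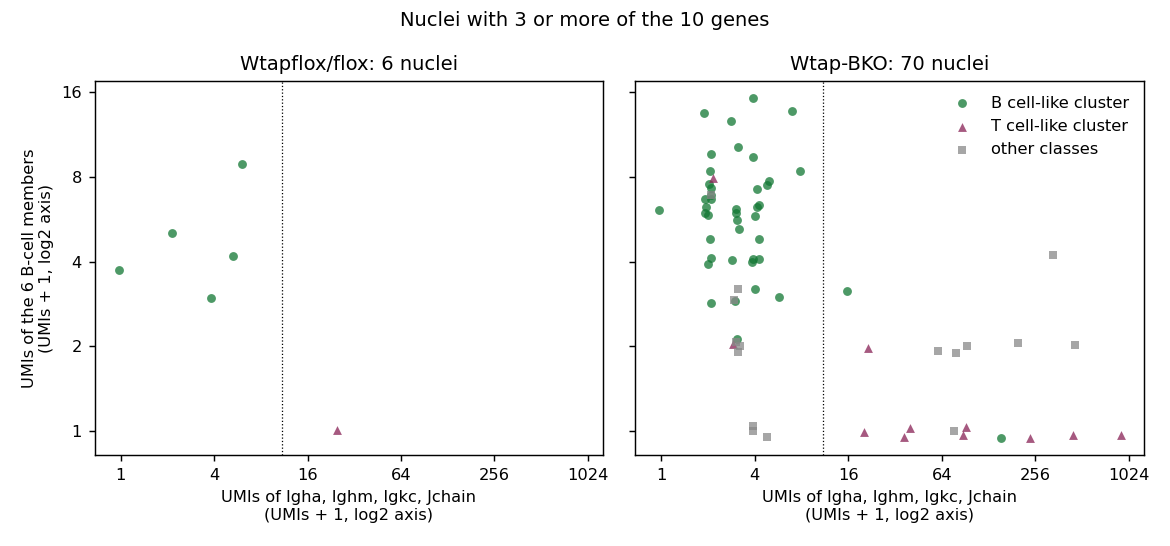
Each point is a nucleus with 3 or more of the 10 genes, placed by its UMIs of the 4 immunoglobulin genes (x, UMIs + 1, log2 axis, slightly jittered) and of the 6 B-cell genes (y, UMIs + 1, log2 axis, slightly jittered), for the Wtapflox/flox library (left, 6 nuclei) and the library labelled Wtap-BKO (right, 70 nuclei); colour and shape give the cluster, and the dotted line marks 10 immunoglobulin UMIs. Nuclei right of the line, 1 and 18 in number, hold at most 3 UMIs of the B-cell genes, and nuclei of the B cell-like cluster lie mostly left of it.

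Clustering of all nuclei, for which the members and all other immunoglobulin genes were left out of the variable features, gave 1 small cluster of 77 nuclei whose leading genes included *Ighd*, *Pax5*, *Cd22* and *Fcer2a*. It was called B cell-like from a marker list that holds the members: of the markers it met, 9 were members and 2 were not, so the name rests mainly on the genes that chose the candidate nuclei, and the placement of candidates in it is a description. It held 12 nuclei of the Wtapflox/flox library (0.126%, 0.0653% to 0.221%) and 65 of the library labelled *Wtap*-BKO (0.741%, 0.572% to 0.943%), a ratio of 5.86. Candidate nuclei made up 5 of the 12 and 43 of the 65. All 4 B-cell type nuclei of the first library and 36 of 39 of the second lay in this cluster. The cluster stood alone only at the settings used here. At resolution 1.0 its 12 and 63 nuclei with fewer than 10 immunoglobulin UMIs lay in a dendritic cell-like cluster, with 8 PCs all 12 and 59 of the 63 lay in a T cell-like one, and without integration all 12 and 59 of the 63 lay in a macrophage-like one.

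In the library labelled *Wtap*-BKO, 63 nuclei of the cluster had fewer than 10 immunoglobulin UMIs. The cluster was not of B-cell type throughout: 6 markers of plasmacytoid dendritic cells gave 114 UMIs in 23 of the 63 nuclei (1827 CPM, 1507 to 2194), against 351.9 CPM in the 8680 other nuclei. Of these 114 UMIs, 92 lay in the 6 nuclei with *Siglech*, a lectin of plasmacytoid dendritic cells, which held 4 *Ighm* UMIs, 1 *Igkc* UMI and none of the other members, and none of which was a candidate. The other 57 nuclei held the remaining 22 marker UMIs (401.9 CPM, 251.9 to 608.5) and 41 of the candidates. No nucleus of the cluster had *Siglech* in the Wtapflox/flox library. The levels below are over all 63. *Bank1* had 168 UMIs, *Ighm* 58, *Igkc* 57, *Pax5* 44, *Cd79b* 17, *Cd79a* 15, *Ms4a1* 10 and *Fcrl1* 10, while *Igha* had 1 and *Jchain* had 0. *Ighd*, the IgD constant region co-expressed with *Ighm* in naive B cells, stood at 977.5 CPM (747.7 to 1256) in 33 nuclei and was at 0 UMIs in the 18. *Cd22*, an inhibitory lectin of the B cell surface, stood at 592.9 CPM with 0 UMIs in the 18. The transcription factors *Bach2* and *Ebf1* stood at 2083 CPM (1740 to 2474) and 3205 CPM (2776 to 3681), against 25.4 CPM and 1066 CPM in the 18. *Ebf1* is also expressed by adipocytes and stromal cells and stood at 1193 CPM in the other nuclei. *Prdm1*, the repressor that marks plasma cell commitment, was at 0 UMIs in the 63 nuclei and at 253.8 CPM (121.7 to 466.8) in 8 of the 18. *Mki67* and *Top2a*, genes of dividing cells, gave 1 UMI each in the 63 nuclei and 10 and 4 UMIs in the 18. The 12 B cell-like nuclei of the Wtapflox/flox library likewise held *Bank1* (17 UMIs), *Ighm* (9), *Igkc* (6) and *Pax5* (5), with no UMI of *Igha*, *Jchain* or *Ms4a1*.

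The 18 immunoglobulin-rich nuclei had no cluster of their own. In the clustering used here, 9 lay in the T cell-like cluster, 5 in adipocyte-like, 2 in B cell-like, 1 in endothelial-like and 1 in macrophage-like clusters. These places moved with the clustering: 12 lay in the T cell-like cluster with 8 PCs, and without integration 8 lay in macrophage-like, 4 in smooth muscle-like and 3 in T cell-like clusters. The T cell markers did not go with this placement: over all 18 nuclei, 3 UMIs of 11 T cell markers were found, in 3 nuclei, and the nucleus of the Wtapflox/flox library, also in the T cell-like cluster, had none. Of the 5 adipocyte-like nuclei, the 2 deepest had 7046 and 8716 UMIs with 114 and 62 UMIs of adipocyte markers, and the other 3 had 3 each. Removal of the nuclei with the highest doublet scores took 1 of the 18 and 5 of the 70 candidate nuclei. The part of doublets in these nuclei was not tested.

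Outside B cell-like nuclei and the 18, another 11 candidate nuclei of the library labelled *Wtap*-BKO were deeper than most, with a median of 2807 UMIs, and together held only 45 UMIs of the 10 genes. In 9 of them the members were single or paired UMIs of *Igha*, *Igkc*, *Ighm*, *Jchain*, *Bank1* or *Pax5*. The other 2, in a T cell-like and an endothelial-like cluster, held 5 and 6 members, with *Cd79b*, *Pax5* and *Bank1* in both.

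How far the 10 genes were confined to candidate nuclei differed between genes. In the library labelled *Wtap*-BKO, candidate nuclei (0.798% of nuclei) held 76.2% of *Igha*, 71.9% of *Pax5*, 69.9% of *Jchain*, 68.8% of *Igkc*, 63.2% of *Cd79b* and 55.9% of *Cd79a* UMIs. The share was 41.7% for *Ms4a1*, 40.7% for *Fcrl1*, 35.0% for *Bank1* and 20.7% for *Ighm*. In the Wtapflox/flox library the share was 25.0% or less for each of the 10 genes and 0% for *Ms4a1* and *Fcrl1*. Since these genes chose the nuclei, the shares are a description.

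The levels outside the candidate nuclei are given as a description too, since leaving out nuclei chosen by these genes removes more of their UMIs from the library with more candidates. *Pax5* then had 15 and 18 UMIs (log2 ratio -0.10, -1.17 to 0.99), *Cd79a* 11 and 15 (0.09, -1.13 to 1.35) and *Ms4a1* 9 and 14 (0.28, -1.03 to 1.66). *Cd79b* with 5 and 14 UMIs (1.12, -0.43 to 2.95) and *Fcrl1* with 5 and 16 (1.32, -0.20 to 3.12) had intervals that included 0 as well. *Jchain* had 49 and 81 UMIs (0.36, -0.17 to 0.91) and *Bank1* 106 and 284 (1.06, 0.73 to 1.40). *Igha* and *Igkc* remained higher in the library labelled *Wtap*-BKO, with 61 and 591 UMIs (2.91, 2.53 to 3.32) and 80 and 587 UMIs (2.51, 2.17 to 2.87). Of the 9 members with at least 20 UMIs in these nuclei, 5 were 2-fold or more higher there, beside 19.6% of all genes, and none was 2-fold or more lower, beside 2.79% of all genes.

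The remaining immunoglobulin UMIs were spread thinly over many nuclei. Outside the candidates, 245 nuclei (2.58%) of the Wtapflox/flox library and 1280 nuclei (14.7%) of the library labelled *Wtap*-BKO held at least 1 immunoglobulin UMI, and 233 and 1116 of them held exactly 1. No such nucleus held more than 3 in the first library or more than 5 in the second. In adipocyte-like nuclei, which are not known to transcribe immunoglobulin genes, the shares were 2.05% (138 of 6736, median depth of all such nuclei 989 UMIs) and 13.2% (646 of 4897, median 1479 UMIs). Thinned to 1000 UMIs, these shares were 1.80% (1.37% to 2.31%) and 7.97% (7.13% to 8.88%). In endothelial-like nuclei the thinned shares were 1.13% (0.416% to 2.44%) and 10.9% (7.54% to 15.1%), and in fibroblast-like nuclei 2.46% and 6.98%. The thinned shares lay closer together in macrophage-like nuclei, at 9.68% (5.10% to 16.3%) and 12.1% (9.86% to 14.7%), and in T cell-like nuclei, at 10.3% (3.89% to 21.2%) and 13.2% (9.89% to 17.2%), with 12 and 6 such nuclei in the Wtapflox/flox library. Without thinning, *Ighm* gave 30 of 40 and 7 of 9 immunoglobulin UMIs of these last 2 classes in the Wtapflox/flox library. The adipocyte-like and endothelial-like levels are the background here for a single immunoglobulin UMI in another nucleus. The part of free RNA was not tested.

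*Igha* had like levels in every large class of the library labelled *Wtap*-BKO. Without candidate nuclei it stood at 38.6 CPM (34.5 to 43.1) in adipocyte-like, 41.5 (29.9 to 56.1) in fibroblast-like, 43.2 (34.2 to 53.9) in macrophage-like, 51.4 (38.0 to 67.9) in T cell-like, 61.3 (35.7 to 98.1) in pericyte-like and 62.7 (48.2 to 80.3) in endothelial-like nuclei. Only the endothelial-like interval lay wholly above the adipocyte-like one. In the Wtapflox/flox library the same classes stood between 0 and 12.8 CPM. *Igkc* was less even there, at 5.93 CPM (4.33 to 7.94) in adipocyte-like, 20.4 (8.83 to 40.3) in pericyte-like and 21.9 (8.81 to 45.1) in macrophage-like nuclei, the last 2 from 8 and 7 UMIs. *Igkc* followed *Igha*, with 0.588 to 1.19 *Igkc* UMIs per *Igha* UMI over the named and unnamed classes of the library labelled *Wtap*-BKO with *Igha* UMIs, and 0.993 (0.885 to 1.11) over all non-candidate nuclei. In the 18 immunoglobulin-rich nuclei this ratio was lower, at 0.662 (0.616 to 0.711). *Jchain* made up 5.48% of the immunoglobulin UMIs outside the candidates and 5.58% in the 18 nuclei. The mixture in the Wtapflox/flox library was another one, with *Jchain* at 18.8% (14.3% to 24.1%) and *Igha* at 23.5% (18.5% to 29.1%) of 260 UMIs, against 40.01% *Igha* in the other library.

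**Figure D3:**
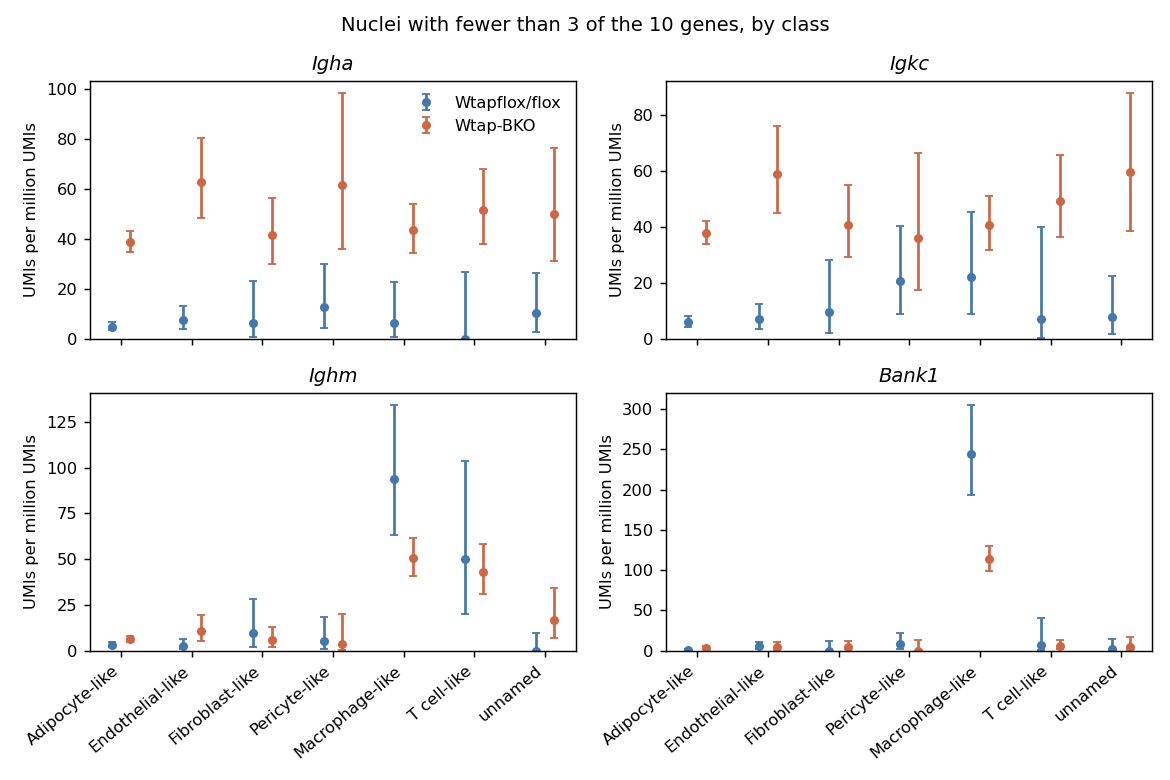
Levels of *Igha*, *Igkc*, *Ighm* and *Bank1* (UMIs per 1000000 UMIs, axes from 0) in nuclei with fewer than 3 of the 10 genes, by class, for the Wtapflox/flox library (blue) and the library labelled Wtap-BKO (orange), with 95% Poisson intervals. In the library labelled Wtap-BKO *Igha* and *Igkc* lie at like levels across the large classes, whereas *Bank1* stands out in macrophage-like nuclei (244.1 and 113.3) and *Ighm* in macrophage-like and T cell-like nuclei.

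Outside the candidates, immunoglobulin UMIs per nucleus rose less than depth did. When the non-candidate nuclei of the library labelled *Wtap*-BKO were split into quartiles by their UMIs, immunoglobulin UMIs per 1000 nuclei were 148.4, 144.8, 166.8 and 218.9 from the shallowest to the deepest quartile. The same UMIs per 1000000 fell from 210.9 CPM (188.5 to 235.2) to 73.5 CPM (67.1 to 80.5), as the nuclei of the deepest quartile had 1947 to 22837 UMIs and those of the shallowest 500 to 887. In the Wtapflox/flox library the values per 1000 nuclei were 23.2, 20.2, 29.9 and 36.3, and the CPM went from 38.4 to 18.3.

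**Figure D4:**
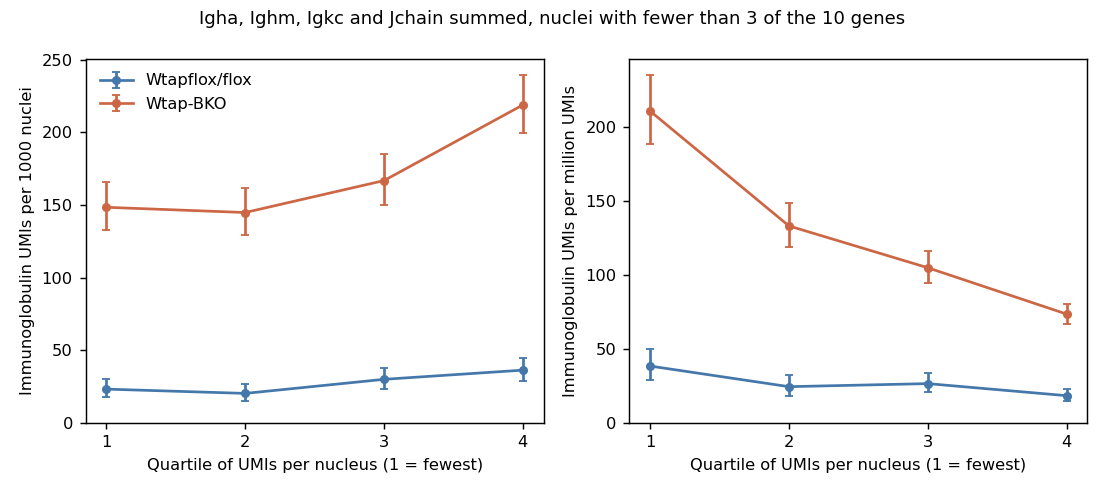
Summed UMIs of *Igha*, *Ighm*, *Igkc* and *Jchain* per 1000 nuclei (left) and per 1000000 UMIs (right, axes from 0) by quartile of UMIs per nucleus, for nuclei with fewer than 3 of the 10 genes in the Wtapflox/flox library (blue) and the library labelled Wtap-BKO (orange), with 95% Poisson intervals. From the lowest to the highest quartile the count per 1000 nuclei goes from 148.4 to 218.9 in the library labelled Wtap-BKO, while the value per 1000000 UMIs goes down from 210.9 to 73.5.

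Summed over the 4 immunoglobulin genes, the log2 ratio between the libraries was 3.68 (3.51 to 3.85, 296 and 4910 UMIs) over all nuclei, 2.18 without the nuclei that held 10 or more immunoglobulin UMIs, and 2.14 (1.95 to 2.34, 260 and 1477 UMIs) without all candidate nuclei. Within classes the size of this step differed. In adipocyte-like nuclei the log2 ratio was 3.46 (3.22 to 3.72) with and 2.23 (1.97 to 2.50) without candidate nuclei. In macrophage-like nuclei it was 0.99 (0.52 to 1.49) with and 0.17 (-0.32 to 0.69) without them, and 1 nucleus with 192 immunoglobulin UMIs held much of the difference, since the value was 0.30 without the richest nucleus of each library. The sum without candidates joined genes that went opposite ways in this class. *Ighm*, with 30 of 40 and 92 of 257 UMIs, was lower in the library labelled *Wtap*-BKO (log2 ratio -0.90). *Igha* (2 and 79 UMIs) and *Igkc* (7 and 74 UMIs) were higher there. In T cell-like nuclei the summed log2 ratio was 3.19 (2.69 to 3.74) with and 1.23 (0.26 to 2.38) without candidates, in fibroblast-like nuclei 1.58 and 1.5, and in pericyte-like nuclei, which held no candidate, 1.45. Endothelial-like nuclei without candidates held 33 immunoglobulin UMIs in 1213 nuclei of the Wtapflox/flox library and 141 in 853 nuclei of the other. The 6 B-cell genes summed had a log2 ratio of 1.49 (1.25 to 1.75, 171 and 624 UMIs) over all nuclei and of 1.94 with macrophage-like nuclei left out.

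*Bank1* and *Ighm* departed from this even spread, with their highest levels outside the B cell-like cluster in macrophage-like nuclei. These nuclei held 78 of 119 *Bank1* UMIs in the Wtapflox/flox library and 212 of 437 in the library labelled *Wtap*-BKO. In non-candidate macrophage-like nuclei *Bank1* stood at 244.1 CPM (193.0 to 304.7) and 113.3 CPM (98.4 to 129.9), against 1.32 and 3.74 CPM in adipocyte-like nuclei. A *Bank1* UMI was found in 20% (58 of 290, median depth 892 UMIs) and 11.5% (128 of 1116, median 1312 UMIs) of macrophage-like nuclei, and in 0.148% and 0.613% of adipocyte-like ones. Macrophage-like nuclei with *Bank1* had more macrophage marker UMIs than those without, at 5994 against 2871 CPM in the first library and 7134 against 2682 CPM in the second, and *Mrc1*, the mannose receptor of resident macrophages, stood at 1498 against 635.9 CPM and at 1661 against 504.8 CPM. At a finer clustering, the macrophage-like cluster richest in *Mrc1* held 248 of the 290 nuclei of the Wtapflox/flox library, with *Bank1* at 277.5 CPM (218.6 to 347.3), and 650 of the 1116 of the other, at 189.3 CPM (162.9 to 218.8). Another 315 of the 1116 lay in a second macrophage-like cluster, where *Bank1* was at 17.7 CPM (8.49 to 32.6). Apart from *Ighm* and *Bank1*, B-cell genes were scarce in these nuclei: *Pax5* had 2 and 3 UMIs, *Cd79a* 1 and 1, and *Ms4a1* 0 and 5.

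The *Bank1* level in macrophage-like nuclei was lower in the library labelled *Wtap*-BKO (log2 ratio -1.11, -1.49 to -0.71), although its level over all nuclei was higher. With nuclei under 1000 UMIs left out, the macrophage-like log2 ratio was -0.65 (-1.18 to -0.08), and within the *Mrc1*-rich cluster it was -0.55 (-0.95 to -0.15). Of all genes with at least 20 UMIs in these nuclei, 6.19% were 2-fold or more lower there and 12.6% were 2-fold or more higher. In adipocyte-like nuclei, where 4.33% were lower and 14.6% higher by that much, the log2 ratio of *Bank1* was 1.5 (0.44 to 2.70). Macrophage-like nuclei were 3.05% of the Wtapflox/flox library and 12.8% of the other. *Ighm* had the same order, at 93.9 CPM (63.4 to 134.0) and 50.4 CPM (40.6 to 61.8) in macrophage-like nuclei (log2 ratio -0.90, -1.51 to -0.25, and -0.54, -1.19 to 0.15, within the *Mrc1*-rich cluster), against 3.17 and 6.27 CPM in adipocyte-like nuclei. T cell-like nuclei also held *Ighm* above the adipocyte-like level, at 50.2 CPM (20.2 to 103.4) and 43.0 CPM (30.9 to 58.3).

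Genes outside the 10 that were most concentrated in candidate nuclei were found among 2681 genes with at least 10 UMIs there, ranked by the log2 ratio of CPM in candidate over all other nuclei. Since the members chose the nuclei, the ranking describes co-occurrence. The 15 leading genes included *Ighg2b*, *Gm30211*, *Gm43388*, *Ighd*, *Pou2af1*, *Iglc2*, *Cd22*, *Fcer2a*, *Cr2*, *Cacna1e*, *Mzb1*, *Gm15987*, *Chst3* and *5830418P13Rik*. Some lay mainly in 1 of the 2 kinds of nuclei and others in both. *Ighg2b* (81 UMIs in nuclei with 10 or more immunoglobulin UMIs and 2 in the other B cell-like nuclei), *Mzb1* (12 and 1), *5830418P13Rik* (12 and 0) and *Cacna1e* (32 and 15) were richer in the immunoglobulin-rich nuclei. *Ighd* (0 and 73), *Cd22* (0 and 46), *Chst3* (0 and 25) and *Fcer2a* (0 and 24) lay in the B cell-like ones. Found in both were *Pou2af1*, a coactivator of immunoglobulin transcription (15 and 11), *Gm30211* (18 and 10), *Iglc2* (9 and 11), *Gm15987* (59 and 75) and *Gm43388* (7 and 25).

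Over the 15 combinations of class and library with at least 50 nuclei, the 5 genes whose levels were most like those of the summed immunoglobulin members were *P2ry10* (Pearson r = 0.937 on log2(CPM + 1)), *Dusp2* (0.929), *Ezr* (0.920), *Ltb* (0.917) and *Traf3ip3* (0.911). The combinations share their library, and 12079 genes were compared, so this is a description. The T cell-like value of the library labelled *Wtap*-BKO rested on few nuclei, with 2019 immunoglobulin UMIs with and 144 without the candidates. Without candidate nuclei in any class, r for the same 5 genes was 0.799, 0.834, 0.817, 0.757 and 0.757.

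The wider B-lineage lists were described by their counts, beside the 19.8% of all genes that were 2-fold or more higher over all nuclei in the library labelled *Wtap*-BKO. Of 9 other immunoglobulin constant genes, 3 had at least 20 UMIs and all 3 were 2-fold or more higher: *Ighg2b* with 1 and 116 UMIs, *Ighd* with 24 and 87, and *Iglc2* with 1 and 31. *Ighg1* had 2 and 0 UMIs and *Ighe* 0 and 1. The 348 listed variable-region genes of the heavy and light chains together gave 1 and 40 UMIs, 28 of the 40 in candidate nuclei. Of 13 plasma cell genes with enough UMIs, 7 were 2-fold or more higher (median log2 ratio 1.25), as were 18 of 23 other B-cell genes (1.71), 4 of 5 germinal centre and cycling genes (2.25) and 3 of 10 signals that attract or sustain B-lineage cells (0.50). None of the genes in these lists was 2-fold or more lower.

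With the candidate nuclei left out, the other immunoglobulin constant genes went from 3 of 3 to 1 of 2, and *Ighd* had 19 and 41 UMIs (log2 ratio 0.75, -0.07 to 1.62). *Ighg2b* stayed higher, with 1 and 33 UMIs (4.683, 2.105 to 10.03). In the same nuclei 5 of 12 plasma cell genes, 14 of 22 other B-cell genes, 4 of 5 germinal centre and cycling genes and 3 of 10 support signals were still 2-fold or more higher, beside 19.6% of all genes. *Ciita*, the activator of MHC class II genes in B cells and macrophages, had 151 and 1113 UMIs outside candidate nuclei and was among the leading genes of the macrophage-like cluster, which held 3.05% and 12.8% of the nuclei. *Mki67* had 77 and 445 UMIs there and *Top2a* 45 and 336. *Ebf1* had 16951 and 16520 UMIs (log2 ratio -0.40). Among the support signals, *Tgfb1*, which promotes switching to IgA, had 153 and 576 UMIs (1.55, 1.29 to 1.82), *Ccl19* had 4 and 37 UMIs and *Cxcl13*, the chemokine that draws B cells, had 2 and 21 UMIs, 16 of the 21 in 1 nucleus, without which it would have been under the minimum of 20 UMIs. *Tnfsf13b*, which encodes the B cell survival factor BAFF, had 62 and 144 UMIs (0.85, 0.42 to 1.31). The part of other cell types in these list counts was not tested.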

How the data were processed

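Nuclei of frozen iBAT were profiled with 10x 3′ v3.1 chemistry. Per the file headers, the deposited values were raw UMI counts per gene and nucleus made by the authors with Cell Ranger 5.0.0. The submitters' processing notes name Trimmomatic, FastQC, Cell Ranger, Seurat and the build mm10. Inclusion of intronic reads and removal of doublets or free RNA were not given in the sources used here. The lowest total per nucleus was 500 UMIs in both libraries, and none was removed.

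The members, lists and rules were chosen with earlier results of these data known. Nuclei were clustered in Seurat 5.3.0 (R 4.3.3) after the methods of the study (integration by canonical correlation analysis, 20 PCs, resolution 0.5), with 399 immunoglobulin and member genes left out of the 2000 variable features. The study's methods also name 8 PCs for later clustering, and 8 PCs were run here as an alternative. Clusters were called "X-like" where at least 3 markers of a class had 10 or more UMIs and 2 times the CPM of the other nuclei. Clusters with at least 50% of the adipocyte markers at 1.5 times the CPM of the named clusters were called adipocyte-like. UMIs were summed per library and class (Python 3.11.15, numpy 2.4.6, scipy 1.17.1). The depth per library was 10770604 and 13945673 UMIs. With 1 library per genotype, no p-value was computed. CPM have exact Poisson, shares Clopper-Pearson and log2 ratios exact conditional 95% intervals, which cover counting error only. A gene was compared where it had at least 20 UMIs in both libraries together. The ratio and its interval were tested on simulated counts. Genes named beyond the members were those with the most UMIs of each list, the 15 most concentrated in candidate nuclei and the 5 most correlated over classes. Other genes named from the lists were chosen after their values were seen. Alternatives covered the depth and mitochondrial limits, doublet scores (Scrublet in scanpy 1.11.5, whose own calls of 3 and 0 nuclei were not usable), scaling, clustering, the rule for candidates and single dominant nuclei. Symbols were matched to RefSeq genes of GRCm38.p6, all 10 by symbol. A gene that these rules also named is not reported here.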

Additional observations from a re-analysis of the deposited data

Results flagged for a closer look

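*Bank1* went in opposite directions in 2 classes of nuclei with fewer than 3 of the 10 genes. As the log2 ratio to the Wtapflox/flox library, the value of the library labelled *Wtap*-BKO was 1.5 (95% counting interval 0.44 to 2.70, 10 and 31 UMIs) in adipocyte-like nuclei and -1.11 (-1.49 to -0.71, 78 and 207 UMIs) in macrophage-like nuclei. *Ighm* did likewise, at 0.99 (0.26 to 1.75, 24 and 52 UMIs) in adipocyte-like and -0.90 (-1.51 to -0.25, 30 and 92 UMIs) in macrophage-like nuclei. The macrophage-like class held different shares of finer clusters in the 2 libraries. Within its *Mrc1*-rich cluster the values were -0.55 (-0.95 to -0.15) for *Bank1* and -0.54 (-1.19 to 0.15) for *Ighm*. With 1 library per genotype, neither difference between classes was tested.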

How the results depend on the processing

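No paired analysis was possible because each genotype had 1 library. The log2 ratios recomputed here kept their sign, and the share of candidate nuclei stayed higher in the library labelled *Wtap*-BKO, under each alternative run for them. Alternatives for Wtapflox/flox gave shares of candidate nuclei of 0.0229% (minimum of 1000 UMIs, and thinned to 1000 UMIs), 0.0157% (without nuclei over 5% mitochondrial UMIs), 0.305% (2 or more genes), 0.0211% (4 or more) and 0.0105% (3 or more without *Bank1* and *Ighm*). For the library labelled *Wtap*-BKO they gave 2.31% (2 or more genes), 0.388% (4 or more), 0.473% (thinned), 0.513% (2 or more B-cell genes) and 0.456% (without *Bank1* and *Ighm*). The mitochondrial limit kept 6360 of the 9494 nuclei of Wtapflox/flox and only 2210 of the 8772 of the other library. The log2 ratio of summed immunoglobulin genes was 4.00 with a minimum of 1000 UMIs, 3.12 without nuclei over 5% mitochondrial UMIs, 3.50 without the richest nucleus of each library and 2.18 without nuclei of 10 or more immunoglobulin UMIs. In adipocyte-like nuclei the last 3 settings gave 3.15, 3.05 and 2.24, removal of candidates 2.23 and 8 PCs 2.67. In macrophage-like nuclei they gave 0.37, 0.30 and 0.20, removal of candidates 0.17 and clustering without integration 2.25. In that last setting the class held 8 of the 18 immunoglobulin-rich nuclei and 59 of the 63 B cell-like nuclei of the library labelled *Wtap*-BKO. Its immunoglobulin UMIs were then 78 and 2156, beside 40 and 455 in the main clustering. Without candidates *Ighm* was lower in this class (log2 ratio -0.90), whereas *Igha* and *Igkc* were higher. The summed B-cell genes had a log2 ratio of 1.94 without macrophage-like nuclei. The cause of these shifts was not tested. Removing *Bank1* and *Ighm*, nuclei of 10 or more immunoglobulin UMIs, or macrophage- or B cell-like nuclei was chosen after the data were seen.

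All 60 alternatives for single genes over all nuclei kept a higher level in the library labelled *Wtap*-BKO, and 53 of them stayed at 2-fold or more. *Bank1* in macrophage-like nuclei had a log2 ratio of -0.65 with a minimum of 1000 UMIs. Within the *Mrc1*-rich macrophage-like cluster, chosen after the data were seen, it was -0.55. *Cd79a*, *Cd79b*, *Ms4a1*, *Pax5* and *Fcrl1* had few UMIs, and depth limits them.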
